A study of Mus musculus with 16 samples.

Results

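The comparison of TKO with WT cells on day 4 of differentiation rests on 4 of the 16 bulk RNA libraries of the study, 2 of each genotype. They were chosen by their titles alone. Both genotypes are E14 mouse embryonic stem cells (the line ES-E14TG2a, derived from a male embryo), and both had first been kept in serum-free medium with LIF, a Gsk3 inhibitor, a MEK inhibitor and vitamin C. From day 0 they were moved to Fgf2, Activin A and 1% knock-out serum, which drives them toward epiblast-like cells (EpiLCs), so the day 4 groups differ only in genotype as the labels give it. The labels do not spell out TKO, nor say how the line was made or whether it is 1 clone. It was read here as a triple knockout of Dnmt1, Dnmt3a and Dnmt3b, which is an assumption. The other 12 libraries, the same genotypes on days 0, 2 and 7, set the spread of the fit and serve for the comparison with other days.

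DNA methylation at CpG dinucleotides is written by the de novo enzymes Dnmt3a and Dnmt3b and copied after replication by Dnmt1. In the mouse embryo it is low in the preimplantation epiblast and is restored around implantation, the step that EpiLC culture imitates. Genes used in germ cells, among them many of the piRNA pathway and of meiosis, often carry CpG-rich promoters that are methylated at this step and stay silent in the body afterwards. Many X-linked genes of the testis are also silent in the body. In imprinted regions 1 parental copy is methylated.

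The promoters of 4 germline genes on which the results turn are printed here, each from 250 bases before to 50 bases after the RefSeq start of the gene (GRCm38.p6), 5′ to 3′ on the strand of the gene, with every CpG in capitals. Asz1 and Hormad1 were far higher in TKO cells, Dazl was also higher, and Sycp3 was lower.
Asz1 promoter, chr6:18109012-18109311, minus strand: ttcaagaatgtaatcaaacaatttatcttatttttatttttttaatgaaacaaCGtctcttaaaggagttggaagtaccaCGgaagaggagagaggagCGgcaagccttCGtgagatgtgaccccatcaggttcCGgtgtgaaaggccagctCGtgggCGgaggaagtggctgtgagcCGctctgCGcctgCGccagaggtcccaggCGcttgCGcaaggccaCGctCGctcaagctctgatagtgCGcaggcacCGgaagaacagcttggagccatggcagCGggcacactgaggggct
Dazl promoter, chr17:50293571-50293870, minus strand: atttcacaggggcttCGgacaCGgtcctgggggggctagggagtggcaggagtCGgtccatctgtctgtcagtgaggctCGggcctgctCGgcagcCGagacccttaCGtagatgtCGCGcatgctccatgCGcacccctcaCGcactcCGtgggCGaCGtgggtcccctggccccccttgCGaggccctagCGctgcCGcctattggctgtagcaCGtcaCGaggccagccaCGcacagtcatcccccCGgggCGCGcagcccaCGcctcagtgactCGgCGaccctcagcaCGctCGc
Hormad1 promoter, chr3:95559427-95559726, plus strand: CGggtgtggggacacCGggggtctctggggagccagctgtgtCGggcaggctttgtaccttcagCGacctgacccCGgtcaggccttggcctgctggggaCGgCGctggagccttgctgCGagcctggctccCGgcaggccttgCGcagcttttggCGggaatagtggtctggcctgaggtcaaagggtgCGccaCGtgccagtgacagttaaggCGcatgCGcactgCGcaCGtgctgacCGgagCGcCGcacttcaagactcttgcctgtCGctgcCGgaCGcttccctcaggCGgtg
Sycp3 promoter, chr10:88459337-88459636, plus strand: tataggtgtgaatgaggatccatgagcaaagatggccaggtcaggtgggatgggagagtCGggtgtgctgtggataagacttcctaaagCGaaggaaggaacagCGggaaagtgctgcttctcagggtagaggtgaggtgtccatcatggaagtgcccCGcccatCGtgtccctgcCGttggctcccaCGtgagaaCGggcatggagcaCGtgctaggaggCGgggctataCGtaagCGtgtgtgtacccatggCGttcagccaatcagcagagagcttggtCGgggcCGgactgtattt
They hold 17 CpGs for Asz1, 28 for Dazl, 24 for Hormad1 and 15 for Sycp3, and the promoters of Hormad1 and Sycp3 hold the palindrome CACGTG. The E-box CACGTG is bound by several basic helix-loop-helix proteins. It was found in 19 of 66 promoters of the 3 germline lists (28.8%), in 9 of 43 of those whose gene rose (20.9%), in 3 of 8 of those whose gene fell (37.5%) and in 7 of 15 of those not called (46.7%), against 1222 of the 13070 promoters matched among all tested protein-coding genes (9.35%). The E2F-type word TCCCGC, searched on both strands, was in 32 of the 66 (48.5%) and in 4251 of the 13070 (32.5%), and both words were in 10 of the 66 (15.2%) and in 453 of the 13070 (3.47%). The median promoter held 17 CpGs in the germline lists and 7 in the list of X-linked Rhox, Xlr and Mage genes. RefSeq promoters were matched for 76.9% of the tested protein-coding genes, which limits the shares over all genes, and a check of CpG content against all genes is void at that coverage.

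At day 4 the estimated counts summed to 47064338 and 42625417 in TKO replicates 1 and 2, and to 58197630 and 49300368 in WT replicates 1 and 2. Estimated counts were summed per gene, scaled by the effective library size to CPM, counts per 1000000 and tested with edgeR across 18489 genes. A gene is called here when its Benjamini-Hochberg adjusted p is under 0.05 and both TKO libraries lie on the same side of both WT libraries. Values after ± are approximate standard errors of log2 fold changes of TKO over WT. Each is the absolute log2 fold change divided by the square root of its edgeR F statistic. The titles call the libraries biological replicates 1 and 2. They do not say whether the replicates came from separate cultures, so a p measures only the spread between these libraries. The markers of the labelled state were present in every library. Pou5f1, the core pluripotency factor, had 808 and 963 CPM in TKO cells and 866 and 965 CPM in WT cells, and Fgf5, the usual EpiLC marker, had 72.2 and 113 CPM in TKO cells and 82.4 and 99.8 CPM in WT cells. Neither was called (edgeR adjusted p = 0.817 and 0.955).

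The TKO libraries differed from each other. Among genes at 5 CPM or more in the higher library, 231 were over 2-fold apart in TKO day 4, 119 higher in replicate 1 and 112 higher in replicate 2, against 99 in WT day 4. The remaining groups had 130 (WT day 0) and otherwise 25 or fewer. By the median difference between replicates WT day 0 was further apart, at 0.22 on the log2 scale, against 0.12 in TKO day 4 and 0.11 in WT day 4. Of the 231 genes, 107 were still called (46.3%), since both TKO libraries cleared both WT libraries, 94 of them higher and 13 lower. The share over all genes, 28.8%, had no such limit on CPM or on the ratio of the TKO libraries, so the 2 shares cannot be compared. Markers of other cell types moved with this split: the 15 endoderm genes summed to 411 and 182 CPM in the TKO libraries and to 117 and 108 CPM in the WT libraries. Most of these sums came from Col4a1, with 319 and 133 CPM in TKO and 79.97 and 70.3 CPM in WT. The 29 listed Hox genes summed to 74.3 and 18.6 CPM in TKO and to 8.02 and 23.2 CPM in WT. Their part in other results was not tested. In bulk RNA, fewer cells of a type and less RNA per cell cannot be told apart. For a gene reported as changed, the loss of its call without 1 library or in a fit of only the day 4 libraries is given beside its value.

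**Figure D1:**
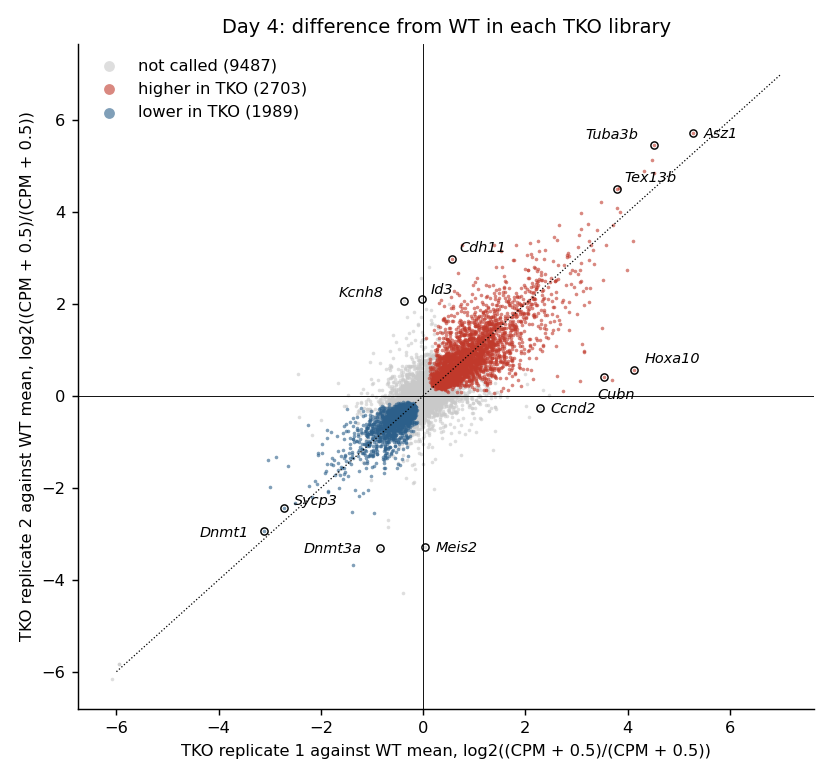
Each point is 1 of 14179 genes at 1 CPM or more in a day 4 library; the axes give the log2 difference, with 0.5 CPM added, of TKO replicate 1 (x) and TKO replicate 2 (y) from the WT mean, and the dotted line marks equal differences. Red points are the 2703 plotted genes called higher in TKO, blue the 1989 called lower; Asz1, Tuba3b and Tex13b lie near the line, while Hoxa10, Cubn and Ccnd2 lie far to the right of it and Cdh11 and Id3 far above it.

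In all 5321 genes met the call rule (28.8% of those tested), 3278 higher in TKO (17.7%) and 2043 lower (11.0%). The rises were larger than the falls. By 2-fold or more there were 1923 rises (10.4%) and 261 falls (1.41%), and by 4-fold or more 882 rises and 46 falls. Of the genes that rose, 105 had 0 counts in both WT libraries. A further 21 genes passed the adjusted p (5342, or 28.9%, by that alone) but had overlapping libraries. Without WT replicate 1 the count of falls was 1340. The median log2 fold change over all genes was 0.01. Called in each of the fits that hold 1 TKO day 4 library were 2781 genes, 1892 higher and 889 lower. When only the 4 day 4 libraries were fitted there were 2821 (16.9% of 16685), 1789 higher and 1032 lower, of which 1760 and 938 were also called with all 16 libraries.

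Rises were more frequent on 1 stretch of the genome than elsewhere. On the first 80 Mb of chromosome 6, a boundary chosen after the values were seen, 197 of 355 tested protein-coding genes were higher in TKO (55.5%) and 1 was lower. The median log2 difference of its expressed genes from the WT mean, relative to the other autosomes, was 0.59 and 0.42 in the TKO day 4 libraries. On the rest of chromosome 6 it was 0.16 and -0.01, with 108 of 486 genes higher (22.2%), and on the other autosomes it lay between -0.05 and 0.05, with 12.7% to 22.4% of genes higher. The same stretch had medians of 0.24 and 0.24 in TKO day 0, 0.28 and 0.26 in TKO day 2, and 0.47 and 0.42 in TKO day 7. The part of this shift in the values of single genes was not tested. Asz1, Ndnf, Nap1l5, the Hoxa genes, Ezh2, Cbx3 and Col1a2, named below, lie in it. Without chromosome 6 there were 4958 called genes, 2960 higher and 1998 lower.

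**Figure D2:**
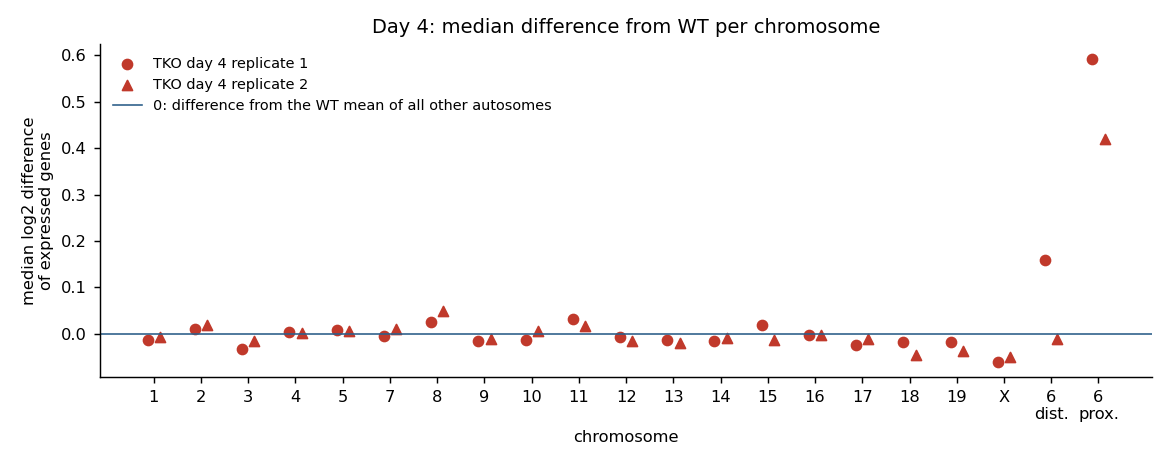
The median log2 difference from the WT mean of protein-coding genes at 10 CPM or more (y) is shown per chromosome (x) for TKO day 4 replicate 1 (circles) and replicate 2 (triangles), with the other autosomes centred on 0. The proximal stretch of chromosome 6 stands at 0.59 and 0.42, its distal part at 0.16 and -0.01.

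X-linked and Y-linked genes also differed. On the X chromosome 186 of 658 tested protein-coding genes were higher in TKO (28.3%, against 18.4% of all tested protein-coding genes). Of these, 145 were higher by 2-fold or more (22.0% of the 658, against 10.6%). Falls were more frequent as well, with 104 genes lower (15.8%, against 11.8%). The median of expressed X-linked genes was -0.06 and -0.05 in the TKO libraries. Of the broadly expressed Y-linked genes, Ddx3y, an RNA helicase, had 28.1 and 51.1 CPM in TKO cells and 68.0 and 72.4 CPM in WT cells, and Uty, a histone demethylase paralogue, had 14.2 and 24.5 CPM in TKO cells and 42.5 and 40.6 CPM in WT cells. TKO replicate 1 was the lowest library for both genes (log2 fold change -0.83 ± 0.22 and -1.11 ± 0.20, edgeR adjusted p = 0.0148 and 0.00112). It was also the lowest for Eif2s3y, with 22.1 and 41.4 CPM in TKO cells and 66.0 and 65.7 CPM in WT cells. The log2 fold change of Eif2s3y was -1.056 ± 0.195 (edgeR adjusted p = 0.00158, and 0.054 with day 4 alone). These 3 genes are the Y-linked ones at a day 4 mean of 10 CPM or more, and their median was -1.441 and -0.600 in TKO day 4. It was -0.643 and -0.655 in TKO day 0, -0.733 and -0.818 in TKO day 2, and -0.404 and -0.374 in TKO day 7. Kdm5d, which lay below that level and was called higher, is not among them. The call of Ddx3y was lost without TKO replicate 1 (-0.46, adjusted p = 0.0699) and with day 4 fitted alone (0.087). Other Y-linked genes went the other way. Of 20 tested 8 were higher in TKO (40.0%, against 18.4% of all tested protein-coding genes) and 3 lower (15.0%, against 11.8%). Of those 8, Gm10256, Gm21704, Gm21708, Gm4064 and Rbmy were under 1 CPM in every day 4 library. Rbmy and Gm21708 had the same values in TKO day 7, 8.107 and 11.68 CPM, so they may share reads and not be separate rises. Without TKO replicate 1 the calls of Gm21704, Gm21708 and Gm4064 were lost. That of Gm21708 was also lost with day 4 alone (edgeR adjusted p = 0.0577). Kdm5d, a histone demethylase, had 10.9 and 13.9 CPM in TKO cells and 8.64 and 5.62 CPM in WT cells (0.79 ± 0.17, edgeR adjusted p = 0.00413; 0.0828 with day 4 alone). Uba1y, a ubiquitin-activating enzyme, had 13.9 and 4.78 CPM in TKO cells and 2.47 and 3.55 CPM in WT cells (1.65 ± 0.41, adjusted p = 0.012; 0.104 without TKO replicate 1 and 0.082 with day 4 alone). Values from the fits without a WT library are not given here for Ddx3y, Uty, Eif2s3y, Kdm5d and Uba1y. Usp9y, a deubiquitinase gene, had 6.4 and 8.92 CPM in TKO cells and 0.448 and 0.209 CPM in WT cells.

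The genes that TKO was taken to lack were all still transcribed. Dnmt1 (ENSMUSG00000004099.16, chromosome 9, 20907209 to 20959888), the maintenance enzyme, had 36.2 and 40.7 CPM in TKO cells and 313 and 320 CPM in WT cells, and its fall by 3.04 on the log2 scale was the largest of any named gene (± 0.10, edgeR adjusted p = 1.62e-09). Dnmt3b had 431 and 757 CPM in TKO cells and 1516 and 1245 CPM in WT cells (-1.22 ± 0.19, adjusted p = 0.000444). Dnmt3a had 187 and 33.9 CPM in TKO cells and 297 and 380 CPM in WT cells, and missed the call (adjusted p = 0.0553). The TKO libraries lay far apart, both below WT, and the fall was called with either of them alone (log2 -3.33 without TKO replicate 1, adjusted p = 6.28e-08; -0.86 without TKO replicate 2, 0.000712). Dnmt3l, a cofactor of the de novo enzymes that has no catalytic activity, went the other way, at 42.2 and 17.4 CPM in TKO cells and 2.10 and 2.28 CPM in WT cells (3.77 ± 0.36, adjusted p = 2.35e-05). A gene count cannot show whether a deleted exon is missing, so these levels do not establish the genotype. Of 11 genes of the methylation machinery 3 rose (27.3%, against 17.7% of all genes) and 2 fell (18.2%, against 11.0%); the rises of Uhrf1, which brings Dnmt1 to replicating DNA, and its relative Uhrf2 were 0.25 and 0.30 and were lost with only the day 4 libraries (adjusted p = 0.0542 and 0.11), without TKO replicate 1 (0.11 and 0.317) and without WT replicate 1 (0.121 and 0.0606) or 2 (0.0544 and 0.15). Tet1, Tet2 and Tet3, which oxidise methylcytosine, were not called.

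Of the 12 largest rises, 4 belong to the germline and X-linked lists, which are Asz1, Tuba3b, Tex13b and Rhox2a. Asz1 (ENSMUSG00000010796.11, chromosome 6, 18050964 to 18109061), which anchors the piRNA machinery at mitochondria, had 21.7 and 29.9 CPM in TKO cells and 0.0862 and 0.0627 CPM in WT cells (8.36 ± 0.27, edgeR adjusted p = 1.76e-09). Tuba3b, an alpha tubulin of the testis, had 16.8 and 32.9 CPM in TKO cells and 0.155 and 0.355 CPM in WT cells. Tex13b, an X-linked testis gene, had 10.9 and 18.2 CPM in TKO cells and 0.362 and 0.293 CPM in WT cells. Pramel3, of a gene family used in the germ line and early embryo, had 4.06 and 7.93 CPM in TKO cells and 0.0345 and 0.0418 CPM in WT cells. The X-linked homeobox genes Rhox2a and Rhox4e rose by 5.77 ± 0.37 and 4.93 ± 0.37, and Tktl2, a transketolase-like gene, by 7.11 ± 0.29. In each of these genes both TKO libraries were far above both WT libraries. Reads shared with near-identical relatives (the Rhox, Tuba3, Pramel, Xlr and Mage families) make the level of any 1 member uncertain.

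The other large rises were Kdr, the VEGF receptor, at 11.3 and 11.3 CPM in TKO cells and 0.586 and 0.209 CPM in WT cells, Ndnf, a secreted neuronal factor (4.38 ± 0.32), the ribosomal protein paralogue Rpl39l (4.41 ± 0.31), Usp9y (4.50 ± 0.36) and Hoxa10. Hoxa10, a posterior homeobox gene, rested on 1 library, with 9.65 and 0.368 CPM in TKO cells and 0.0862 and 0.0836 CPM in WT cells. Its log2 value was 5.84 ± 1.38 (edgeR adjusted p = 0.00973) and 2.07 without TKO replicate 1 (0.135); leaving out WT replicate 1 (0.0724) or 2 (0.0654), or fitting day 4 alone (0.0625), also ended the call.

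**Figure D3:**
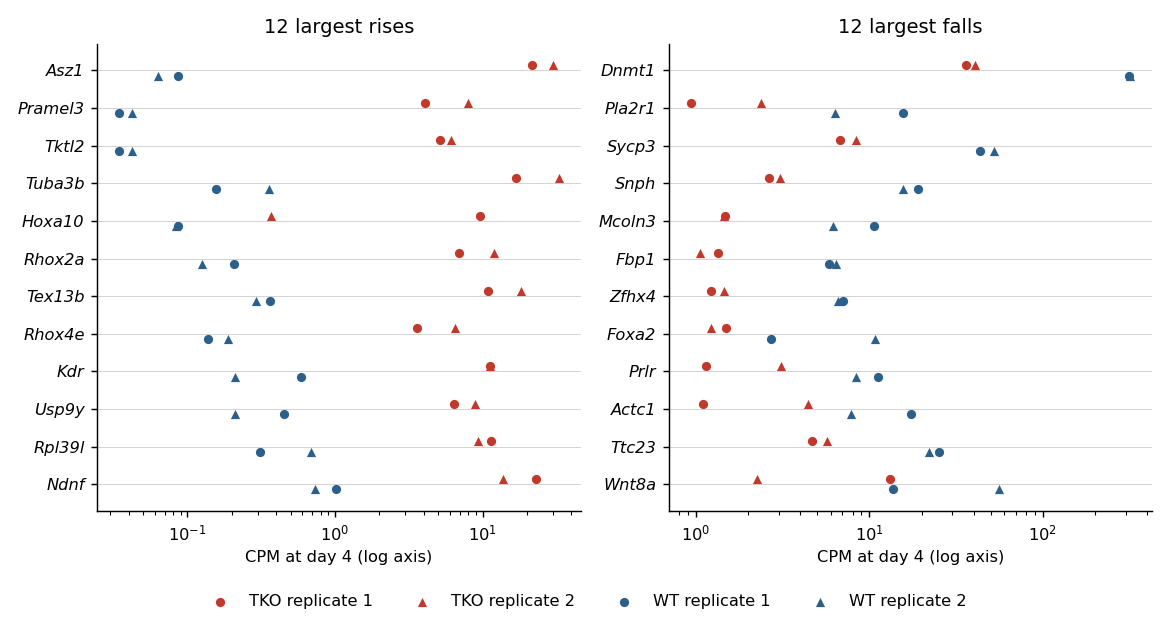
CPM of the 12 largest rises (left) and 12 largest falls (right) in each day 4 library on a log axis, TKO in red above WT in blue, replicate 1 as circles and replicate 2 as triangles. All TKO points clear all WT points; the gap is narrowest for Hoxa10 replicate 2 and for Wnt8a replicate 1.

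Among the falls, after Dnmt1, was Sycp3 (ENSMUSG00000020059.9, chromosome 10, 88459569 to 88473236), the axial element of the synaptonemal complex, at 6.75 and 8.35 CPM in TKO cells and 43.4 and 52.0 CPM in WT cells (-2.66 ± 0.15, edgeR adjusted p = 1.54e-07). Snph, a neuronal protein that anchors mitochondria, had 2.65 and 3.06 CPM in TKO cells and 19.16 and 15.6 CPM in WT cells. Mcoln3, an endolysosomal channel, had 1.48 and 1.45 CPM in TKO cells and 10.7 and 6.15 CPM in WT cells. Pla2r1, the M-type phospholipase A2 receptor, had 0.938 and 2.39 CPM in TKO cells and 15.6 and 6.38 CPM in WT cells. Zfhx4, a zinc finger homeobox factor, Fbp1, an enzyme of gluconeogenesis, Ttc23 and Prlr, the prolactin receptor, fell by 2.35, 2.35, 2.19 and 2.22 on the log2 scale.

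Of the 12 falls, 3 lost their call in some fits. Foxa2, a forkhead factor of endoderm, had 1.5 and 1.22 CPM in TKO cells and 2.71 and 10.8 CPM in WT cells, and its call was lost without TKO replicate 2 (adjusted p = 0.0578, edgeR) and with only the day 4 libraries (0.0652). Wnt8a, a Wnt ligand of the gastrulating epiblast, had 13.1 and 2.25 CPM in TKO cells and 13.7 and 55.7 CPM in WT cells. Its libraries are far apart in both genotypes, and the call (adjusted p = 0.045) was lost without TKO replicate 2 (0.152), without WT replicate 2 (0.414), with the replicate block (0.0744) and with only the day 4 libraries (0.161). The fall of the cardiac actin Actc1 was lost without WT replicate 1 (0.0905) and with only the day 4 libraries (0.082).

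Germline genes are described in 3 lists. In the piRNA pathway, which silences transposons in germ cells, 14 of 23 genes rose (60.9%, against 17.7% of all genes tested) and 2 fell (8.70%, against 11.0%), with a median log2 fold change of 1.23 against 0.01 over all genes. Fkbp6, a co-chaperone of the pathway, had 16.3 and 19.0 CPM in TKO cells and 1.52 and 1.59 CPM in WT cells (3.51 ± 0.16, edgeR adjusted p = 1.68e-08). Gtsf1, a cofactor of PIWI proteins, had 4.08 and 5.06 CPM in TKO cells and 0.121 and 0.167 CPM in WT cells, and Piwil2, a PIWI protein itself, had 27.5 and 22.6 CPM in TKO cells and 3.53 and 5.39 CPM in WT cells (2.49 ± 0.18). The pathway did not move as 1 unit. Tdrd1, a Tudor scaffold of the same complexes, had 4.31 and 2.02 CPM in TKO cells and 9.38 and 11.4 CPM in WT cells (-1.70 ± 0.29, adjusted p = 0.000623), and Tdrd5 fell by 0.70 on the log2 scale. The other 7 members, among them Mael and Piwil1, were not called.

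Genes of meiotic chromosomes and recombination were divided. Of 32 genes 17 rose (53.1%, against 17.7% of all genes) and 5 fell (15.6%, against 11.0%), with a median of 0.60. Hormad1, which marks unsynapsed axes, had 13.4 and 11.2 CPM in TKO cells and 0.983 and 1.55 CPM in WT cells (3.30 ± 0.18, edgeR adjusted p = 1.9e-07). Tex11 and Tex12, which take part in synapsis and crossing over, rose by 2.41 ± 0.17 and 3.68 ± 0.34, and Terb2, a meiotic telomere protein, by 1.42 ± 0.15. Spata22, which acts with recombinases, had 17 counts in TKO cells and 0 in WT cells. Dmc1, the meiotic recombinase, had 5.46 and 5.43 CPM in TKO cells and 12.0 and 11.9 CPM in WT cells (-1.14 ± 0.18, adjusted p = 0.000389), so its libraries did not overlap in the opposite direction. Msh5 and Mei1, which act in crossing over and break formation, fell by 0.75 and 2.18; the call of Mei1 was lost without TKO replicate 2 (adjusted p = 0.0643) and that of Msh5 with an effective-length offset (0.103). Fitted with only the day 4 libraries, 11 genes of the list rose; without TKO replicate 2, 3 fell, and without TKO replicate 1 the median was 0.26.

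Other genes of the testis and germ cells rose most often of the 29 lists, 18 of 22 tested (81.8%, against 17.7% of all genes). Their median was 2.61, and 1 of 22 fell (4.55%, against 11.0% of all genes). Sohlh2, a transcription factor of germ cell differentiation, had 20.8 and 20.7 CPM in TKO cells and 1.05 and 2.30 CPM in WT cells (3.66 ± 0.21, edgeR adjusted p = 3.14e-07). Dazl, which binds messenger RNA in germ cells, had 7.50 and 7.54 CPM in TKO cells and 1.35 and 2.53 CPM in WT cells (1.98 ± 0.20, adjusted p = 1.26e-05). Its relative Boll was the 1 member that fell, with 0.708 and 0.828 CPM in TKO cells and 1.48 and 1.80 CPM in WT cells, a call lost without WT replicate 2 (adjusted p = 0.0512), with an effective-length offset (0.468) and with only the day 4 libraries (0.0665). The testis antigen Magea4 had 132 counts in TKO cells and 1 in WT cells, a ratio of 153 in CPM terms (95% counting interval 26.9 to 6076).

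The X-linked Rhox, Xlr and Mage genes moved in 1 direction: 17 of 22 tested (of 27 listed) rose and 0 fell (edgeR; 77.3%, against 17.7% of all genes and 28.3% of tested protein-coding X-linked genes), with a median of 2.16. Mageb4 had 320 counts in TKO cells and 2 in WT cells, a ratio of 185 (95% counting interval 50.8 to 1535), and Magea10 had 52 counts in TKO cells and 0 in WT cells. Tktl1, the X-linked transketolase-like gene, had 5.0 and 4.62 CPM in TKO cells and 0.276 and 0.481 CPM in WT cells (3.68 ± 0.26, edgeR adjusted p = 9.59e-07). Xlr4c rose by 2.07 ± 0.16. With only the day 4 libraries 11 genes of this list rose.

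**Figure D4:**
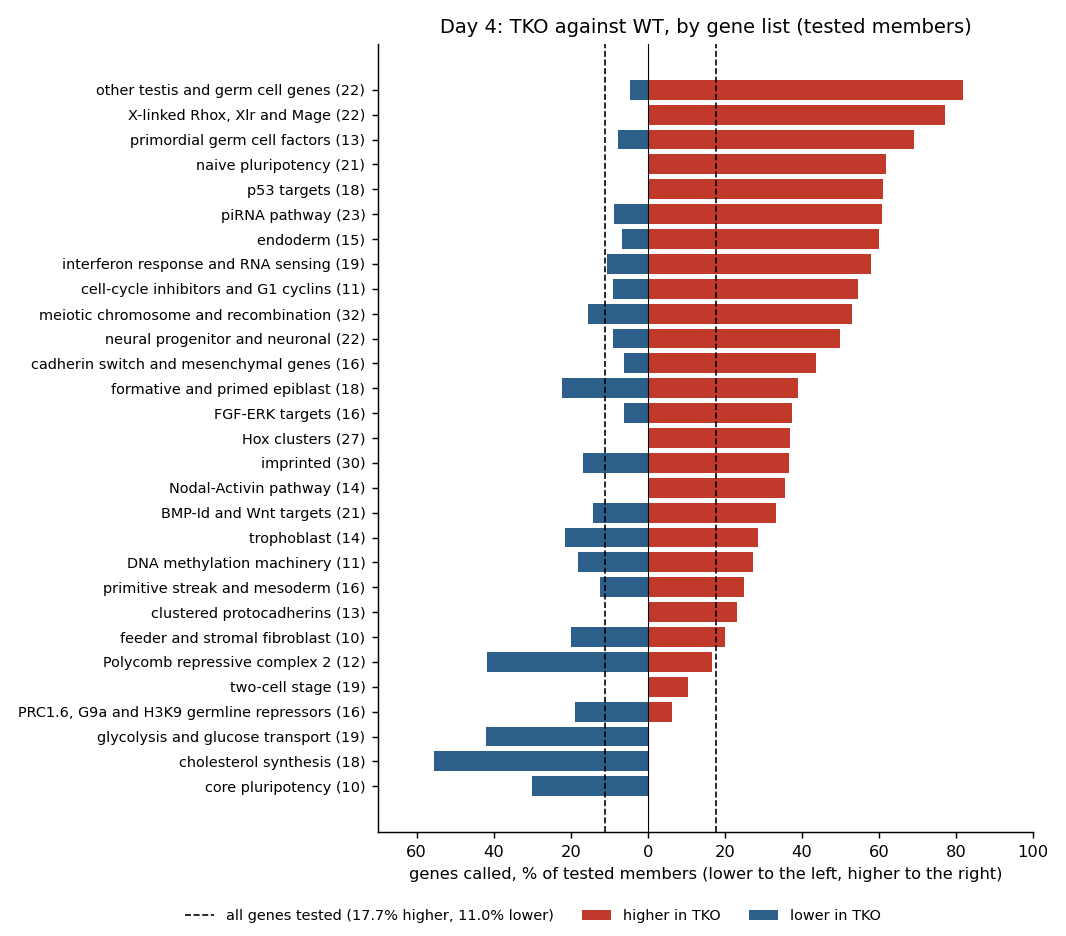
Bars give, for each of the 29 gene lists (tested members in brackets), the percentage of members called higher in TKO (red, to the right) and lower (blue, to the left); dashed lines mark all genes tested, 17.7% and 11.0%. Testis, X-linked and germ cell lists reach furthest to the right, cholesterol synthesis, glycolysis and Polycomb repressive complex 2 furthest to the left.

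Factors of primordial germ cells, the embryonic founders of the germ line, rose in 9 of 13 cases (69.2%, against 17.7% of all genes) and fell in 1 (7.69%, against 11.0%), with a median of 0.94. Sox17, which in the mouse is best known for endoderm, had 1.54 and 0.782 CPM in TKO cells and 0.0862 and 0 CPM in WT cells. Rhox6 and Rhox9, homeobox genes of early germ cells, rose by 3.78 ± 0.42 and 2.61 ± 0.46, and Ifitm3, a surface protein of these cells, had 41.0 and 49.4 CPM in TKO cells and 21.2 and 13.6 CPM in WT cells (1.38 ± 0.19, edgeR adjusted p = 0.00017). The receptor Kit was the 1 that fell, at 20.5 and 18.2 CPM in TKO cells and 45.7 and 32.5 CPM in WT cells. Fitted with only the day 4 libraries, 5 of the 13 rose.

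Naive pluripotency genes, which EpiLC culture switches off, were higher in 13 of 21 cases (61.9%, against 17.7% of all genes). They were lower in 0 (edgeR, against 11.0% of all genes), with a median of 0.89. Fgf4, the autocrine ligand of early pluripotent cells, had 48.8 and 65.5 CPM in TKO cells and 15.9 and 20.8 CPM in WT cells (1.64 ± 0.14, edgeR adjusted p = 2.27e-06). Nr0b1, an orphan nuclear receptor, had 4.33 and 6.46 CPM in TKO cells and 0.379 and 0.669 CPM in WT cells, and Fbxo15 had 46.3 and 42.7 CPM in TKO cells and 24.8 and 23.1 CPM in WT cells. In most members, Fbxo15 among them, TKO replicate 1 was the higher. The 21 genes summed to 1205 and 811 CPM in the TKO libraries and to 587 and 838 CPM in the WT libraries, which overlap. Esrrb, an orphan receptor of the naive network, had 37.3 and 14.3 CPM in TKO cells and 5.59 and 8.45 CPM in WT cells (1.89 ± 0.35, adjusted p = 0.00223; 1.03 without TKO replicate 1). Zfp42, also called Rex1, had 24.0 and 13.6 CPM in TKO cells and 6.91 and 8.89 CPM in WT cells, and Morc1 14.5 and 6.14 CPM in TKO cells and 1.83 and 2.03 CPM in WT cells. Klf4 rose by 0.74 ± 0.18, a call lost without TKO replicate 2 (0.0764), without WT replicate 2 (0.0808) and with only the day 4 libraries (0.126). Nanog had 307 and 268 CPM in TKO cells and 286 and 363 CPM in WT cells, with overlapping libraries (adjusted p = 0.233). With TKO replicate 1 left out the list had 10 higher and 1 lower gene, without TKO replicate 2 it had 17 and 0, and without WT replicate 1 it also had 1 lower gene.

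Of the core pluripotency genes, 0 of 10 were higher (edgeR; 1 without WT replicate 2) and 3 were lower (30%, against 11.0% of all genes). Lin28a, which holds back maturation of let-7 microRNAs, had 271 and 258 CPM in TKO cells and 448 and 428 CPM in WT cells (-0.73 ± 0.08, edgeR adjusted p = 1.51e-05). Its relative Lin28b fell by 0.51 and the zinc finger factor Sall4 by 0.53. Sox2 had 39.9 and 22.4 CPM in TKO cells and 33.8 and 42.1 CPM in WT cells and was among the 7 not called (edgeR adjusted p = 0.321).

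Genes of the formative and primed epiblast did not share a direction, with 7 of 18 higher (38.9%, against 17.7% of all genes), 4 lower (22.2%, against 11.0%) and a median of 0.00. Pou3f1, a POU factor of EpiLCs, had 67.4 and 90.6 CPM in TKO cells and 49.7 and 45.6 CPM in WT cells (0.73 ± 0.15, edgeR adjusted p = 0.00256). Pim2, a kinase gene, had 326 and 280 CPM in TKO cells and 692 and 689 CPM in WT cells (-1.19 ± 0.09, adjusted p = 7.75e-07), and Foxd3, a forkhead factor, fell by 0.84. Otx2 had 128 and 147 CPM in TKO cells and 159 and 174 CPM in WT cells and was not called (adjusted p = 0.0637). With only the day 4 libraries 3 genes of the list rose, and without TKO replicate 2, 7 fell.

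The culture is driven by Fgf2 and Activin A. Of 16 FGF-ERK targets 6 rose (37.5%, against 17.7% of all genes) and 1 fell (6.25%, against 11.0%), with a median of 0.32. Spry4 and Spry2, feedback inhibitors of the receptor, rose by 0.75 ± 0.10 and 0.74 ± 0.10, and Etv4, an Ets factor, had 108 and 93.0 CPM in TKO cells and 56.8 and 59.2 CPM in WT cells. Fos, an immediate-early gene, fell by 0.97 ± 0.18, a call lost with only the day 4 libraries (edgeR adjusted p = 0.0519); without TKO replicate 2, 2 targets fell. Of 14 genes of the Nodal-Activin pathway 5 rose (35.7%, against 17.7%) and 0 fell (edgeR). Gdf3, a ligand of the pathway, had 168 and 148 CPM in TKO cells and 59.1 and 78.6 CPM in WT cells, and Pcsk6, a convertase that matures Nodal, had 35.9 and 30.2 CPM in TKO cells and 15.2 and 14.8 CPM in WT cells (1.14 ± 0.09, adjusted p = 1.75e-06). Lefty2, an inhibitor of Nodal, had 299 and 388 CPM in TKO cells and 44.5 and 187 CPM in WT cells, a call (adjusted p = 0.031) lost in the fits that leave out TKO replicate 1 (0.0672) or 2 (0.135) and in that of day 4 alone (0.129). The pathway's count was 3 without TKO replicate 2 or with only the day 4 libraries, and 9 without WT replicate 2; 1 gene fell without TKO replicate 1.

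Neural genes were higher in 11 of 22 tested cases (50.0%, against 17.7% of all genes) and lower in 2 (9.09%, against 11.0%), with a median of 0.94. Sox1, the earliest marker of neural plate, had 56.4 and 74.4 CPM in TKO cells and 17.3 and 17.7 CPM in WT cells (1.90 ± 0.15, edgeR adjusted p = 1.49e-06). Sox21, a factor of neural progenitors, had 11.0 and 5.29 CPM in TKO cells and 0.603 and 0.397 CPM in WT cells, and Pax6 17.2 and 13.5 CPM in TKO cells and 6.05 and 6.69 CPM in WT cells. Pou3f3, a POU factor of the developing brain, had 207 counts in TKO cells and 0 in WT cells, at least 79.8-fold higher against a floor of 3 counts over the WT group. The 2 falls were in genes of neurons, Nrcam by 0.79 and Stmn2 by 0.55 on the log2 scale; Nrcam lost its call without TKO replicate 1 (0.085), without WT replicate 2 (0.127) and with only the day 4 libraries (0.0814), and Stmn2 without WT replicate 1 (0.0564), so 1 gene fell with TKO replicate 1 or 1 of the WT libraries left out. The rise of Lhx2, by 1.76 ± 0.24, was lost with an effective-length offset (0.113).

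Endoderm genes were higher in 9 of 15 cases (60.0%, against 17.7% of all genes) and lower in 1 (6.67%, against 11.0%), with a median of 1.59. All 15 were higher in TKO replicate 1 than in replicate 2. Gata6, a zinc finger factor of primitive endoderm, had 3.73 and 1.08 CPM in TKO cells and 0.103 and 0.0627 CPM in WT cells (4.79 ± 0.60, edgeR adjusted p = 8.61e-05). Col4a1, a basement membrane collagen, had 319 and 133 CPM in TKO cells and 79.97 and 70.3 CPM in WT cells. Hhex, a homeobox factor of the anterior endoderm, rose by 1.25 ± 0.23. The count was 6 without TKO replicate 1 and 13 without TKO replicate 2, when 0 fell, and the median was 0.88 without TKO replicate 1.

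Primitive streak and mesoderm genes had 4 of 16 tested members higher (25%) and 2 lower (12.5%), shares near the 17.7% and 11.0% of all genes. Besides Kdr the rises were Meox1, Hand1 and Lhx1, the last with 4.96 and 0.713 CPM in TKO cells and 0.103 and 0.125 CPM in WT cells. The falls were in genes of the early streak. Eomes, a T-box factor, had 5.38 and 2.62 CPM in TKO cells and 5.66 and 13.3 CPM in WT cells, and Fgf8 5.17 and 6.76 CPM in TKO cells and 8.55 and 28.4 CPM in WT cells. T, the Brachyury factor, had 5.71 and 1.04 CPM in TKO cells and 3.81 and 15.1 CPM in WT cells and was not called (edgeR adjusted p = 0.144). WT replicate 2 was the highest library for all 3, and without it neither fall was called (adjusted p = 0.252 for Eomes and 0.0904 for Fgf8). The call of Eomes was also lost without TKO replicate 2 (0.161) and with only the day 4 libraries (0.146), that of Fgf8 without TKO replicate 1 (0.0991) and with only the day 4 libraries (0.0946), and that of Hand1 without TKO replicate 1 (0.124) and with only the day 4 libraries (0.0595). The list had 1 lower gene without TKO replicate 2, 4 without WT replicate 1 and 0 without WT replicate 2.

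Of 14 tested trophoblast markers 4 rose (28.6%, against 17.7% of all genes) and 3 fell (21.4%, against 11.0%). Cdx2, which specifies trophectoderm, had 11 counts in TKO cells and 0 in WT cells, at least 4.24-fold higher against the same floor. Plet1 had 8.75 and 6.23 CPM in TKO cells and 1.21 and 1.02 CPM in WT cells (2.74 ± 0.20, edgeR adjusted p = 6.76e-07). The keratins Krt8 and Krt18, shared by simple epithelia, were lower, Krt18 at 45.9 and 49.6 CPM in TKO cells and 133 and 109 CPM in WT cells (-1.34 ± 0.13). Without TKO replicate 1, 2 members rose. Of 10 tested stromal fibroblast markers 2 rose (20.0%, near the 17.7% of all genes) and 2 fell (20.0%, against 11.0%). The 11 listed markers summed to 31.7 and 41.8 CPM in TKO cells and 36.8 and 25.2 CPM in WT cells. Col1a2, a fibrillar collagen on proximal chromosome 6, had 8.75 and 4.83 CPM in TKO cells and 2.03 and 1.97 CPM in WT cells (1.76 ± 0.22). Thy1 fell by 1.67 ± 0.28, and the fall of Pdgfrb was lost without TKO replicate 1 (0.0619) or 2 (0.0796), without WT replicate 2 (0.193) and with only the day 4 libraries (0.174); in each of these fits 1 marker fell.

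Hox genes, which pattern the trunk later in development, were higher in 10 of 27 tested cases (37.0%, against 17.7% of all genes). They were lower in 0 (edgeR, against 11.0% of all genes). Of the 10, 4 belong to the Hoxd cluster and were above WT in both TKO libraries. Hoxd13 had 5.81 and 2.90 CPM in TKO cells and 0.707 and 0.732 CPM in WT cells (2.60 ± 0.31, edgeR adjusted p = 5e-05), and Hoxd9 had 2.13 and 0.966 CPM in TKO cells and 0.103 and 0.146 CPM in WT cells. Hoxa9, like Hoxa10, was high in 1 library, with 7.90 and 0.322 CPM in TKO cells and 0.155 and 0.146 CPM in WT cells (4.75 ± 1.24, adjusted p = 0.0148; 1.07 without TKO replicate 1, 0.45). The call of Hoxa9 was lost as well without WT replicate 1 (0.0918) or 2 (0.0864) and with only the day 4 libraries (0.0799). The list count was 5 without TKO replicate 1 or WT replicate 1 and 4 with only the day 4 libraries; 1 gene fell without WT replicate 1. On position, 4 of the 10 genes lie on the proximal stretch of chromosome 6.

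Genes of the interferon response, which double-stranded RNA can set off, rose in 11 of 19 tested cases (57.9%, against 17.7% of all genes). They fell in 2 (10.5%, near the 11.0% of all genes), with a median of 1.01. Rsad2, an antiviral enzyme, had 16.2 and 18.9 CPM in TKO cells and 2.53 and 3.26 CPM in WT cells (2.60 ± 0.26, edgeR adjusted p = 8.85e-06). The RNA sensor Ddx58, also called RIG-I, had 11.2 and 17.8 CPM in TKO cells and 6.52 and 6.31 CPM in WT cells. Isg15, a ubiquitin-like protein, had 1.54 and 3.68 CPM in TKO cells and 0.155 and 0.209 CPM in WT cells. Ddx58 and Isg15 were higher in TKO replicate 2 than in replicate 1. Ifit2 went against them, at 9.36 and 9.52 CPM in TKO cells and 13.7 and 14.7 CPM in WT cells. Stat2 fell by 0.66, a call lost without TKO replicate 2 (0.0882), without WT replicate 1 (0.126) and with only the day 4 libraries (0.108). The count of rises was 6 without TKO replicate 2 or WT replicate 1, and 7 with only the day 4 libraries, and in these 3 fits 1 gene fell.

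Genes of the 2-cell embryo, which other chromatin mutants of these cells can release, were mostly not called: 2 of 19 tested rose (10.5%, against 17.7% of all genes) and 0 fell (edgeR). Zscan4c, the best known, had 9.63 and 3.66 CPM in TKO cells and 2.86 and 6.10 CPM in WT cells, which overlap (adjusted p = 0.487). The rises were Duxf3 and Tcstv1, both under 1 CPM in every day 4 library. The call of Tcstv1 was lost without any 1 of the 4 libraries (0.0898 to 0.199), in DESeq2 (0.113), with an effective-length offset (0.0852) and with only the day 4 libraries (0.0712), and that of Duxf3 without TKO replicate 2 (0.0598), WT replicate 1 (0.127) and with only the day 4 libraries (0.0632). The list had 5 rises without TKO replicate 2, 0 without WT replicate 1, and 1 with TKO replicate 1 or WT replicate 2 left out.

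Targets of p53 rose in 11 of 18 cases (61.1%, against 17.7% of all genes), mostly by less than 2-fold (median 0.42). They fell in 0 (edgeR, against 11.0% of all genes). Cdkn1a (p21), an inhibitor of cyclin-dependent kinases, had 141 and 132 CPM in TKO cells and 56.6 and 50.7 CPM in WT cells (1.35 ± 0.09, edgeR adjusted p = 4.15e-07). Pmaip1 (Noxa), which promotes cell death, had 97.9 and 85.5 CPM in TKO cells and 36.4 and 42.7 CPM in WT cells. Btg2, an antiproliferative factor, and Gtse1, a regulator of p53, rose by 0.92 ± 0.09 and 0.56 ± 0.07. In these 4 genes both TKO libraries were above both WT libraries. Of 11 cell-cycle inhibitors and G1 cyclins, Cdkn1a among them, 6 rose (54.5%, against 17.7% of all genes) and 1 fell (9.09%, against 11.0%). Cdkn2a, which encodes p16 and p19, had 28.2 and 25.5 CPM in TKO cells and 10.2 and 12.3 CPM in WT cells, Cdkn2b rose by 1.26 ± 0.24, and Cdkn1c, which is also imprinted, had 11.9 and 8.35 CPM in TKO cells and 1.83 and 1.99 CPM in WT cells (2.41 ± 0.23, adjusted p = 7.04e-06). Cdkn1b (p27) was lower, with 108 and 104 CPM in TKO cells and 194 and 179 CPM in WT cells (-0.81 ± 0.08, adjusted p = 5.69e-06).

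Of 30 imprinted genes 11 were higher (36.7%, against 17.7% of all genes) and 5 lower (16.7%, against 11.0%). Without methylation an imprinted gene can gain its silent copy or lose its active one, depending on the region. Nap1l5, a nucleosome assembly gene on proximal chromosome 6, had 10.2 and 9.82 CPM in TKO cells and 2.33 and 2.36 CPM in WT cells (2.09 ± 0.16, edgeR adjusted p = 1.04e-06). Ndn (Necdin), expressed from the paternal copy, had 31.6 and 38.1 CPM in TKO cells and 19.9 and 18.9 CPM in WT cells, and H13 38.8 and 47 CPM in TKO cells and 20.4 and 24.9 CPM in WT cells. Mcts2, a gene within H13, went the other way, with 10.1 and 12.1 CPM in TKO cells and 21.3 and 20.6 CPM in WT cells (-0.92 ± 0.11, adjusted p = 3.91e-05). Snrpn, which lies in the same imprinted region as Ndn, had 333 and 368 CPM in TKO cells and 545 and 588 CPM in WT cells (-0.69 ± 0.10). Magel2, of the same region, fell by 1.32 ± 0.22. The fall of Nnat was lost without WT replicate 1 (0.0613). Of the 11 rises 4 lie on chromosome 6. The list had 7 higher genes without TKO replicate 1 or WT replicate 2, and 3 lower without WT replicate 1.

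Of 16 genes of the Polycomb complex PRC1.6 and the histone H3 lysine 9 enzymes, which repress germline genes, 1 rose (6.25%, against 17.7% of all genes) and 3 fell (18.8%, against 11.0%), each by less than 1.5-fold. Pcgf6, the subunit that defines PRC1.6, had 58.9 and 53.7 CPM in TKO cells and 68.8 and 72.0 CPM in WT cells (-0.32 ± 0.08, edgeR adjusted p = 0.00587; 0.0532 with only the day 4 libraries). Cbx3, a heterochromatin protein on proximal chromosome 6, rose by 0.36 ± 0.10 and lost its call without TKO replicate 1 (0.119) or without WT replicate 1 (0.102) or 2 (0.0618). The calls of L3mbtl2 and Cbx1 were lost without TKO replicate 1 (0.0981 and 0.28), without WT replicate 1 (0.103 and 0.0864) or WT replicate 2 (0.125 and 0.139), and with only the day 4 libraries (0.124 and 0.128), and that of L3mbtl2 without TKO replicate 2 (0.109); with TKO replicate 1 or 1 of the WT libraries left out, the list had 0 rises (edgeR) and 1 fall. Mga, E2f6, Setdb1 and Ehmt2 were not called. In Polycomb repressive complex 2, 5 of 12 genes fell (41.7%, against 11.0% of all genes) and 2 rose (16.7%, near the 17.7% of all genes). Suz12, a core subunit, had 153 and 142 CPM in TKO cells and 184 and 186 CPM in WT cells (-0.33 ± 0.07, adjusted p = 0.00508), Rbbp7 fell by 0.52 and the accessory subunit Phf19 by 0.86. Ezh2, the enzyme, rose by 0.39 ± 0.10. It lies on proximal chromosome 6, and its call was lost without TKO replicate 1 (0.131), WT replicate 1 (0.0643), with an effective-length offset (0.0744) and with only the day 4 libraries (0.0645). Without TKO replicate 1, 0 genes of this complex rose (edgeR) and 4 fell, without TKO replicate 2, 3 fell, and with 1 of the WT libraries left out 1 rose.

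Of BMP and Wnt genes 7 of 21 rose (33.3%, against 17.7% of all genes) and 3 fell (14.3%, near the 11.0% of all genes). Bmp2, a ligand, had 1.40 and 0.828 CPM in TKO cells and 0.0862 and 0.105 CPM in WT cells (3.52 ± 0.43, edgeR adjusted p = 4.95e-05), while the ligand Bmp7 had 6.81 and 4.48 CPM in TKO cells and 14.5 and 13.6 CPM in WT cells (-1.31 ± 0.19). Id2 and Id4, inhibitors of basic helix-loop-helix factors and targets of BMP, both rose by 1.47. Notum, an inhibitor of Wnt ligands, rose by 2.93 ± 0.29. Tcf7, a nuclear effector of Wnt, fell by 0.63 and Axin2, its feedback target, by 0.48, the last call being lost without TKO replicate 2 (0.218), without WT replicate 2 (0.187), with an effective-length offset (0.083) and with only the day 4 libraries (0.158). Without TKO replicate 1, 5 genes of the list fell. Of 16 adhesion and mesenchymal genes 7 rose (43.8%, against 17.7%) and 1 fell (6.25%, against 11.0%). Cdh2 (N-cadherin) had 48.9 and 45.1 CPM in TKO cells and 25.3 and 21.4 CPM in WT cells (1.01 ± 0.11, adjusted p = 2.94e-05), Vim (vimentin) rose by 1.04 ± 0.13 and Mmp2, a matrix protease, by 0.96 ± 0.09, while Cdh1 (E-cadherin) was not called. The fall of the splicing factor Esrp1 was lost without TKO replicate 1 (0.146) or WT replicate 1 (0.101) and with only the day 4 libraries (0.115) (0 falls in each), and without TKO replicate 2, 4 genes fell. Clustered beta protocadherins, neuronal adhesion genes, were scarce, with 3 of 13 tested (of 21 listed) higher (23.1%, near the 17.7% of all genes); Pcdhb22 had 1.52 and 2.21 CPM in TKO cells and 0.724 and 0.418 CPM in WT cells.

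Lists of metabolic enzymes had the highest shares of falls. In cholesterol synthesis 10 of 18 genes were lower in TKO (55.6%, against 11.0% of all genes) and 0 higher (edgeR; 1 without WT replicate 2), with a median of -0.30. Lss, which closes the sterol ring, had 150 and 141 CPM in TKO cells and 273 and 230 CPM in WT cells (-0.79 ± 0.09, edgeR adjusted p = 2.48e-05). Mvd and Idi1, which form and isomerise the isoprene unit, fell by 0.75 ± 0.11 and 0.67 ± 0.09. In glycolysis 8 of 19 genes were lower (42.1%, against 11.0% of all genes) and 0 higher (edgeR, against 17.7%), with a median of -0.35. Pfkm, a phosphofructokinase, had 45.5 and 43.9 CPM in TKO cells and 112 and 108 CPM in WT cells (-1.30 ± 0.08, adjusted p = 2.59e-07). Aldoa, the aldolase, had 992 and 942 CPM in TKO cells and 1330 and 1753 CPM in WT cells. Pgk1 had 823 and 872 CPM in TKO cells and 1090 and 1958 CPM in WT cells, so much of its fall came from WT replicate 2. Without that library its call was lost (0.0558, and 0.0774 with only the day 4 libraries), the glycolysis count was 4 and its median -0.15.

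The genes that set the TKO libraries apart have no test, since they were chosen for that ratio. Besides Hoxa10 and Hoxa9, Cubn, an endocytic receptor of visceral endoderm, had 25.3 and 2.44 CPM in TKO replicates 1 and 2 and 1.78 and 1.65 CPM in WT cells. Cer1, a secreted Nodal antagonist of anterior endoderm, had 5.23 and 0.759 CPM in the TKO replicates and 0.172 and 0.125 CPM in WT cells. Ccnd2, a G1 cyclin, had 83.1 and 13.9 CPM in the TKO replicates and 17.0 and 16.5 CPM in WT cells, so replicate 2 was below WT. Cyp26a1, which degrades retinoic acid, Meis2, a cofactor of Hox proteins, and Wnt8a were between 5.81-fold and 13.6-fold higher in replicate 1. In the opposite direction, Id3 had 11.0 and 49.8 CPM in the TKO replicates and 8.0 and 14.4 CPM in WT cells, and Cdh11, a mesenchymal cadherin, 1.04 and 7.79 CPM in the TKO replicates and 0.552 and 0.544 CPM in WT cells. Clca4a, Kcnh8, Itgb8, Pde11a, Acta2 and Lnx1 were between 4.20-fold and 11.2-fold higher in replicate 2. Of the 119 genes higher in replicate 1, 71 had a higher mean in TKO day 7 than in TKO day 2, and of the 112 higher in replicate 2, 73 had.

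Many day 4 differences were unlike those of the same genes in naive culture. The TKO against WT difference at day 4 differed from that at day 0 for 3013 genes (16.3% of those tested; edgeR interaction, Benjamini-Hochberg adjusted p under 0.05), and for 1850 or 1893 genes without TKO day 0 replicate 1 or 2. Of the 3278 genes that rose at day 4, 1636 differed in this way, 1629 of them with the larger difference at day 4. Of the 2043 that fell, 559 did, 531 with the larger fall at day 4. These genes were chosen by their day 4 difference, which enters the same contrast. The direction of these counts was therefore largely set in advance and is no result. Asz1 had 2.88 and 2.66 CPM in TKO day 0 cells and 2.78 and 3.19 CPM in WT day 0 cells, so the day 4 TKO libraries lay above that level and the day 4 WT libraries below it. Dazl had 91.1 and 95.5 CPM in TKO and 190 and 200 CPM in WT at day 0, so it was higher in WT at first and higher in TKO at day 4 (difference of the 2 days 3.04 ± 0.25, adjusted p = 4.67e-06). Cdkn1a likewise had 222 and 226 CPM in TKO and 359 and 303 CPM in WT at day 0. For Dnmt1 a difference between the 2 days was not called (0.14 ± 0.13, adjusted p = 0.515).

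Some differences were larger at day 4 than at day 7, others smaller. The difference at day 4 differed from that at day 7 for 3471 genes (18.8%). Of the genes that rose at day 4, 1180 differed, 761 of them with the larger rise at day 4. Of those that fell, 430 did, 260 with the larger fall at day 4. Here too the choice of genes by their day 4 difference favours a larger difference at day 4. Sox1 had 11.5 and 10.03 CPM in TKO and 11.3 and 8.87 CPM in WT at day 7 (day 4 minus day 7, 1.81 ± 0.22, edgeR adjusted p = 7.88e-05). Fgf4, above WT in both TKO libraries at day 4, was below WT in both at day 7, when it had 2.30 and 2.40 CPM in TKO and 6.52 and 7.02 CPM in WT. Kdr, at 3.25 and 2.67 CPM in TKO and 1.11 and 1.01 CPM in WT at day 7, also had the larger difference at day 4. Asz1 had 49.7 and 50.8 CPM in TKO and 0 CPM in both WT libraries at day 7, and Dazl 26.4 and 21.2 CPM in TKO and 0.0241 and 0 CPM in WT.

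**Figure D5:**
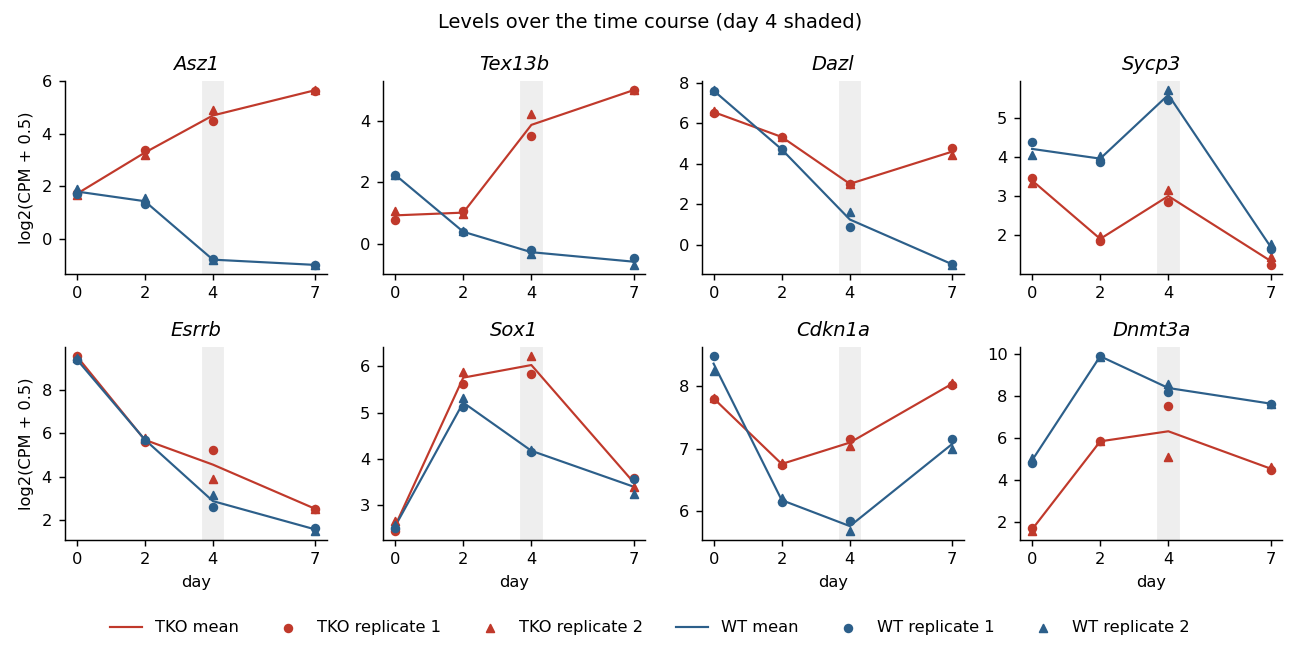
Levels of 8 genes as log2(CPM + 0.5) (y) on days 0, 2, 4 and 7 (x), TKO in red and WT in blue, lines through the means, circles for replicate 1 and triangles for replicate 2, with day 4 shaded. Asz1, Tex13b and Dazl separate by day 4 and stay apart, Sycp3 is lower in TKO throughout, Sox1 is apart at day 4 and together at day 7, and the TKO libraries split at day 4 for Dnmt3a and Esrrb.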

How the data were processed

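The labels describe 16 libraries of polyadenylated RNA (8 groups of 2) made with a kit that keeps strand. Deposited by the authors were estimated counts per transcript (expected counts, not normalised), an effective length (a column of other kind) and TPM, as the file headers name them; TPM gave no result. Kallisto and the builds GRCm38 and mm10 are named, per the submitters' processing notes; version, annotation and strand setting are not given in the sources used here, so reads of antisense neighbours cannot be told apart.

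Of 119414 transcripts 116728 (97.8%) matched GENCODE vM21 (GRCm38) by identifier; counts were summed per gene and rounded. Unmatched transcripts held 0.946% to 1.05% of a library's counts. Genes were tested with edgeR 4.0.16 (R 4.3.3): TMM, filterByExpr by group, robust quasi-likelihood fit of all 16 libraries, 1 mean per group, 8 residual degrees of freedom, common biological coefficient of variation 0.111. The fit was tested on simulated data. Library totals ran from 33168178 to 58197630. Floors (3 counts over a group) and 95% counting intervals cover counting error only. DESeq2 1.42.0 and other settings were tried, and limma 3.58.1 was loaded with edgeR. Adjusted p-values are Benjamini-Hochberg over all genes tested.

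Earlier results of these data were known when the 29 gene lists, the groups compared and the naming rule were chosen. Named are the methyltransferase genes, the 12 largest rises and falls among called protein-coding genes at 5 CPM or more in the higher group (without predicted genes), the 4 or fewer called members with the lowest adjusted p per list and direction, fixed markers, and the 8 genes furthest apart between the TKO libraries in each direction. Kdm5d, Uba1y, Tet1, Tet2, Tet3, Mael, Piwil1, Mga, E2f6, Setdb1, Ehmt2, Cdh1, Ddx3y, Uty, Eif2s3y, Gm10256, Gm21704, Gm21708, Gm4064, Rbmy, Spata22 and Magea10 were named outside it, after their values were seen.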

Additional observations from a re-analysis of the deposited data

Results flagged for a closer look

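The TKO against WT difference at day 4 was set against that at day 0 and at day 7 in 1 fit, and 3013 and 3471 genes differed (edgeR interaction, Benjamini-Hochberg adjusted p under 0.05). Among the largest rises at day 4, the log2 difference at day 4 minus that at day 0 was 8.47 for Asz1, 7.33 for Pramel3, 8.03 for Tktl2, 7.58 for Tuba3b, 6.42 for Hoxa10, 6.51 for Rhox2a, 7.04 for Tex13b and 6.77 for Rhox4e. Among the largest falls it was -1.82 for Sycp3 and -1.91 for Fbp1, both further below WT at day 4. All of these genes were chosen for the size of their day 4 difference, which favours large values here.

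Against day 7 the values were negative, so that the rise was smaller at day 4 than at day 7, for Asz1 (-5.67), Pramel3 (-6.76), Tktl2 (-5.98), Tuba3b (-6.47), Rhox2a (-3.58) and Tex13b (-2.07). In Asz1, Pramel3, Tktl2 and Tuba3b the WT libraries had 0 CPM at day 7, so the fitted size of this difference depends on the prior count and is no bound. For genes that fell at day 4 the fall was larger at day 4 than at day 7 in Sycp3 (-2.23), Snph (-2.74), Mcoln3 (-1.32), Zfhx4 (-1.80) and Fbp1 (-1.52). Foxa2 (-3.48) was lower in TKO at day 4 and higher in TKO at day 7, with 1.5 and 1.22 CPM in TKO against 2.71 and 10.8 CPM in WT at day 4, and 89.9 and 106 CPM in TKO against 46.1 and 39.2 CPM in WT at day 7. What sets these differences apart was not tested.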

How the results depend on the processing

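The count of genes called at day 4 was 5321 (3278 higher, 2043 lower). Fitting only the 4 day 4 libraries gave 2821 (1789 and 1032), and asking for a call in each of the fits that hold 1 TKO day 4 library gave 2781 (1892 and 889). Leaving out 1 day 4 library gave 3837 to 4346 called genes, 2442 to 2828 higher and 1340 to 1520 lower, the lowest count of falls without WT replicate 1. Other scaling, filters, DESeq2 (5251) and an effective-length offset (4214) stayed within 1.5 times. The difference from day 0 was called for 3013 genes, for 1547 with only the libraries of days 0 and 4, for 1850 to 4281 without 1 library, and without TKO day 0 replicate 1 or 2 for 1850 and 1893; that from day 7 was called for 3471, and 2450 to 3595 without 1 library. Leaving out chromosome 6, chosen after seeing the data, gave 4958.

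Of 163 called named genes 122 kept their call in every alternative run and none reversed; 41 lost it in at least 1, 34 of them with only the day 4 libraries. Values that changed sign belonged to genes not called. Over the fits without 1 day 4 library the log2 fold change ran from -2.61 to 0.29 for Acta2, -0.28 to 2.31 for Ccnd2, -0.34 to 0.30 for Fgf5, -0.021 to 2.16 for Id3, -0.81 to 2.18 for Itgb8, -0.49 to 2.26 for Kcnh8, -1.09 to 0.97 for Lnx1, -3.73 to 0.039 for Meis2, -0.34 to 0.008 for Nanog, -0.18 to 0.068 for Pou5f1, -0.77 to 0.071 for Sox2 and -0.29 to 1.22 for Zscan4c. Of list counts 611 of 696 stayed within 1.5 times. The causes were not tested.

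The labels number the biological replicates 1 and 2 in every group but do not say whether equal numbers belong together. Over 28 pairs of groups the correlation of same-numbered deviations ran from -0.745 (WT day 0 against WT day 2) to 0.135. It was over 0.1 in 3 pairs and -0.106 for day 4. These values gave no sign that equal numbers pair the libraries. Whether libraries of different groups were handled together cannot be told from them. With the replicate block 4960 genes were called (3106 and 1854); the crossed replicate pairing, added after seeing the data, gave 5042 (3148 and 1894). Each group has 2 libraries, which limits the precision of every value.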
